A study of Mus musculus with 2 samples.

Results

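Imprinted genes are transcribed mainly from the copy inherited from 1 parent, and 38 of them, chosen by name from 16 loci, were followed in cultured mouse embryonic fibroblasts. All 38 were found by symbol among the 24015 genes of the expression table, and 30 of them, against 13867 genes in all, had at least 1 RPKM (reads normalised to gene length and library size) in a library. One culture was labelled Adar2-/- (KO) and the other Adar2+/+ (WT), where Adar2, listed as Adarb1, encodes an enzyme that converts adenosine to inosine in double-stranded RNA. Both were grown in DMEM with serum and antibiotics, and each gave 1 poly(A)+ library, so no difference below has a replicate check, and nothing here says whether a difference belongs to the genotype or to the culture. The labels give neither the age of the embryos nor whether the cultures were primary or immortalized, nor which stretch of Adar2 was deleted.

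The libraries are called KO-labelled and WT-labelled here, KO and WT for short beside values, because the transcript of the targeted gene did not fall: Adarb1 stood at 25.8 RPKM in the KO-labelled and 18.4 RPKM in the WT-labelled library. That value sums reads along the whole gene, so it says little about a partial deletion. The 12 fibroblast markers were all above 0 in both libraries, and Col1a1, Vim and Fn1 were high in both, while Thy1 was higher (72.1 against 9.40 RPKM in the WT-labelled library) and Dcn lower in the KO-labelled library. Xist was present in both, at 55.0 RPKM in the KO-labelled and 39.0 RPKM in the WT-labelled library, and the 4 Y-linked genes looked at had no reads in either. Markers of other cell types were low except for the cartilage and neural lists. The 4 cartilage markers summed to 17.0 RPKM in the KO-labelled and 66.3 RPKM in the WT-labelled library, nearly all of the gap being Col2a1, and the 4 neural markers summed to 70.1 in KO and 91.3 RPKM in WT, with members on both sides. Sox2 (0.171 in KO and 24.2 RPKM in WT) and Map2 (15.8 in KO and 32.7 RPKM in WT) were lower, and Nes was higher (38.4 in KO and 14.3 RPKM in WT), in the KO-labelled library. The endothelial, epithelial, blood, skeletal muscle, trophoblast and pluripotent lists summed to at most 7.75 RPKM in either library, with the skeletal muscle genes Myod1, Myog and Myf5 at 0 in both. Low as they were, these lists also differed. The endothelial (0.409 in KO and 3.998 RPKM in WT), epithelial (0.722 and 2.28), skeletal muscle (0.342 and 0.76) and trophoblast (0 and 0.534) sums were lower in the KO-labelled library. The blood (7.75 in KO and 5.42 RPKM in WT) and pluripotent (3.16 and 0.923) sums were higher. The part of the cartilage, neural and other marker genes in the differences below was not tested. In bulk RNA, fewer expressing cells and less RNA per cell cannot be told apart.

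Imprinting is set in the germ line by DNA methylation at a control region and is then kept through cell division. Each control region governs a cluster, so that neighbours expressed from opposite parental copies often share it, and long noncoding RNAs such as H19, Meg3, Airn and Kcnq1ot1 are read from many clusters. Growth is a common theme of the proteins: as a broad rule, paternally expressed genes such as Igf2 favour growth of the embryo and maternally expressed genes such as Grb10 and Cdkn1c restrain it. Reads here were not split by parental copy, so the expressed allele named below is background knowledge from mouse, and a level is the sum of both copies.

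A small set of imprinted genes differed widely while most were close. On the scale of RPKM + 1, 6 of the 30 compared members were at least 2-fold higher in the KO-labelled library (20%), against 4.42% of all compared genes. Another 4 were lower by 2-fold or more (13.3%), against 7.46% of all compared genes. The remaining 20 lay within 2-fold, and the median log2 ratio of the members was -0.07, against 0.0053 for all compared genes. The higher genes were Grb10, Gatm, Snrpn, Peg12, Peg3 and Igf2, and the lower genes were H19, Mest, Asb4 and Meg3. The members were picked by name with results of these libraries already known, so these shares describe the list and do not set it apart.

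**Figure D1:**
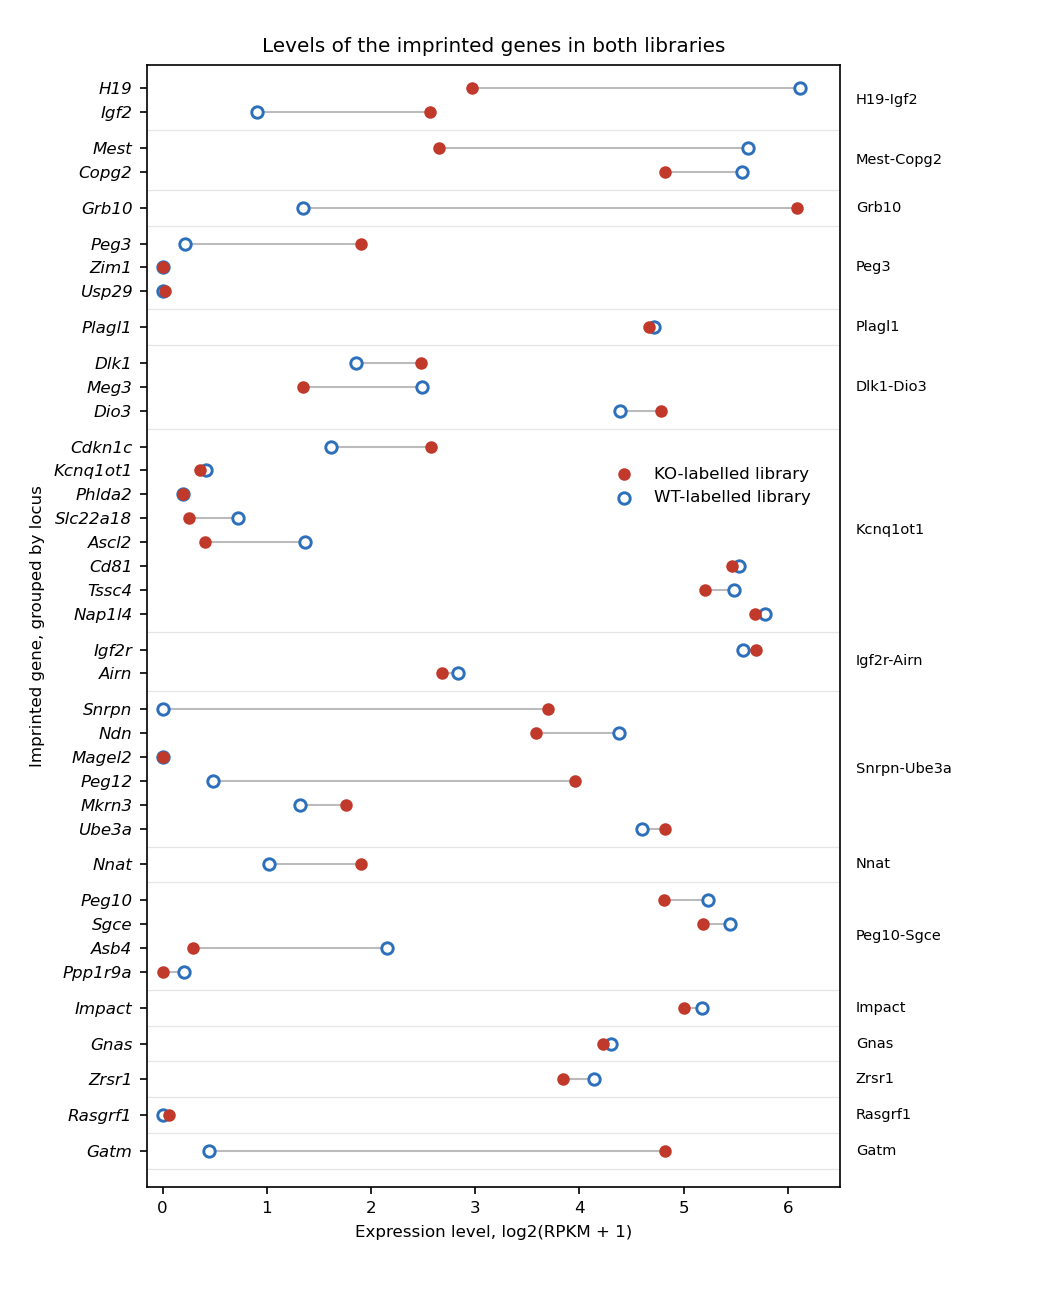
Expression level of the 38 imprinted genes as log2(RPKM + 1), grouped by locus, with the KO-labelled library as filled red points and the WT-labelled library as open blue points (1 library each, so no error bars). Grb10, Gatm, Snrpn and Peg12 lie far to the right in the KO-labelled library, H19 and Mest far to the right in the WT-labelled library, and Plagl1, Gnas, Cd81 and Nap1l4 nearly coincide.

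Parental origin did not sort the differences into a single direction. Of 13 compared genes classed as expressed from the maternal copy, 2 were higher and 3 lower in the KO-labelled library by 2-fold or more, with a median log2 ratio of -0.09. Of 16 expressed from the paternal copy, 4 were higher and 1 was lower, with a median of 0.17, which turned to -0.17 among the 11 with at least 5 RPKM in a library. Of all compared genes, 4.42% were higher and 7.46% lower. Gnas, whose transcripts come from both copies depending on promoter and tissue, was the remaining gene. The classes rest on background knowledge, not on reads split by parental copy. The maternal class takes in Gatm, which was higher but is not known to be imprinted in fibroblasts. It also takes in Ube3a, read from both copies in most cells other than neurons, and Cd81, Tssc4 and Nap1l4, imprinted mainly in placenta. Its counts and median therefore need not describe genes expressed from the maternal copy alone in these cells. The difference between the 2 classes was not tested.

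At the H19-Igf2 locus on chromosome 7, neighbours of opposite parental origin stood on opposite sides. H19, a maternally expressed noncoding RNA abundant in fetal mesoderm, had 6.85 RPKM (171 reads) in the KO-labelled and 68.5 RPKM (1693 reads) in the WT-labelled library. Its log2 ratio of reads per library total was -3.32 with an exact 95% counting interval of -3.56 to -3.10. Igf2, the paternally expressed growth factor that shares enhancers with H19, had 4.92 RPKM (199 reads) in KO and 0.875 RPKM (35 reads) in WT, a log2 reads ratio of 2.49 (1.97 to 3.05). H19 thus exceeded Igf2 in both libraries per unit of length, by far more in the WT-labelled one. The H19 transcript also carries the precursor of a microRNA that restrains placental growth, and the 84-base entry Mir675, which overlaps it on the same strand, had 1 read in the KO-labelled and 48 in the WT-labelled library. Poly(A)+ reads at this entry do not measure the mature microRNA. Its mature products, given by RefSeq (GRCm38.p6, minus strand), are shown because they name what the H19 transcript encodes, with the seed at bases 2 to 8 in capitals; they come from chr7:142577112-142577133 and chr7:142577078-142577099.
mmu-miR-675-5p: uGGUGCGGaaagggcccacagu
mmu-miR-675-3p: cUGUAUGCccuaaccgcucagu

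The Snrpn-Ube3a locus, also on chromosome 7 and the mouse counterpart of the Prader-Willi and Angelman region, held a pair of the widest differences beside genes that were close. Snrpn, which encodes a spliceosomal protein and is paternally expressed, had 12.0 RPKM (273 reads) in the KO-labelled culture, against 0 reads in the WT-labelled one. The interval of its log2 reads ratio started at 6.19 and has no upper end. Snurf, the upstream reading frame of the same messenger RNA, had the same 273 in KO and 0 reads in WT, which is 1 set of reads listed under both names. D7Ertd715e, an entry that overlaps both Snrpn and Ube3a in the annotation and was looked up after its values were seen, had 185 reads in the KO-labelled and 0 in the WT-labelled library. Snrpb, which encodes the closely related spliceosomal protein found in all tissues, was level at 66.4 in KO and 66.5 RPKM in WT.

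Peg12, a paternally expressed member of the Frat family of Wnt regulators, had 14.6 RPKM (367 reads) in the KO-labelled and 0.401 RPKM (10 reads) in the WT-labelled library, a log2 reads ratio of 5.18 (4.29 to 6.26). Its relatives Frat1 (1.2 in KO and 0.972 RPKM in WT) and Frat2 (8.88 in KO and 6.48 RPKM in WT) differed far less. The other paternally expressed genes of the cluster lay within 2-fold or had no reads. Ndn, encoding the growth suppressor necdin, was lower at 11.0 RPKM (173 reads) in KO, against 19.9 RPKM (310 reads) in the WT-labelled library. Its interval of -1.13 to -0.58 lay below 0. Mkrn3, encoding a ring-finger protein, had 2.39 RPKM (58 reads) in KO and 1.5 RPKM (36 reads) in WT, with an interval of 0.05 to 1.32, above 0. Magel2 had no reads in either library. Ube3a, the ubiquitin ligase gene that is maternally expressed in neurons but from both copies in most other cells, was close at 27.2 in KO and 23.2 RPKM in WT.

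**Figure D2:**
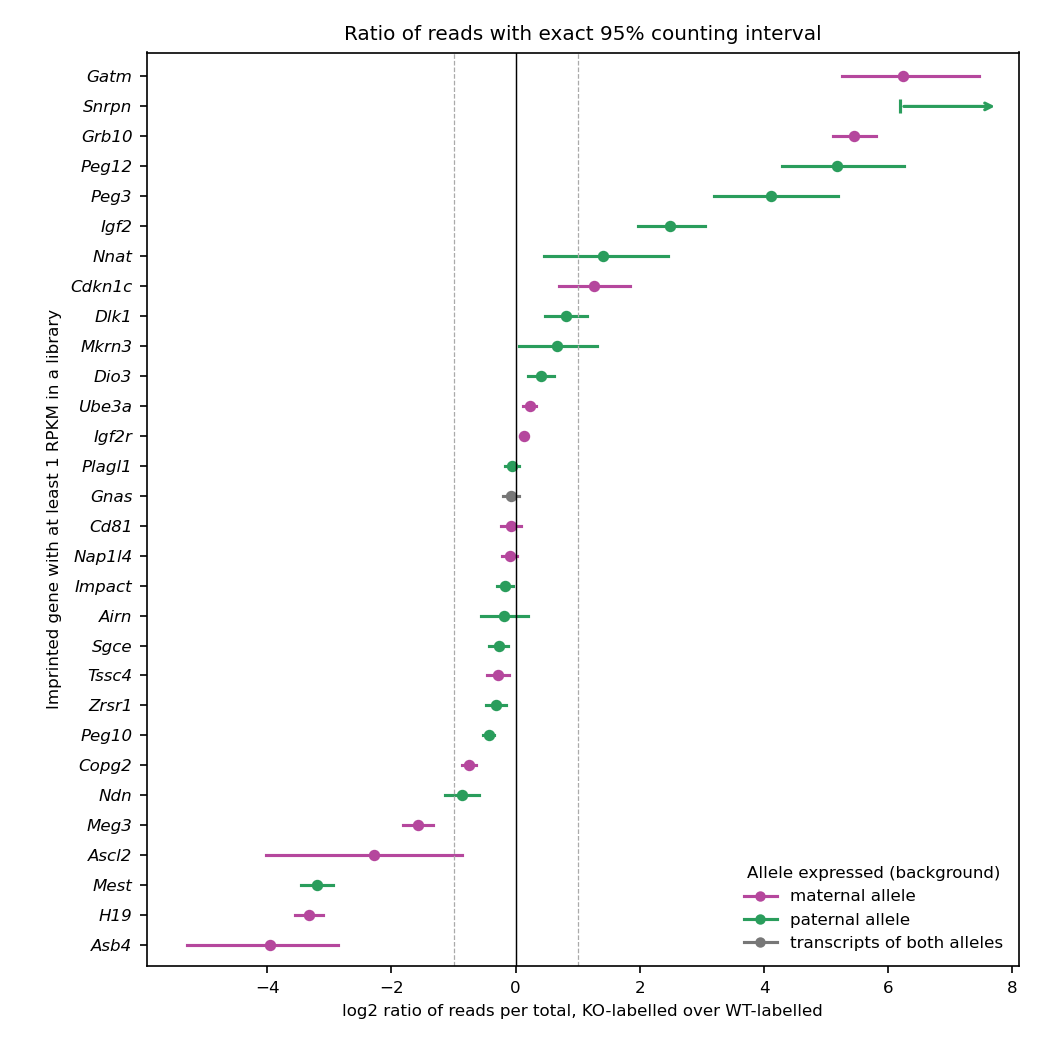
Log2 ratio of reads per library total, KO-labelled over WT-labelled, for the 30 compared genes, with exact 95% intervals that cover counting error only; dashed lines mark 2-fold, colours the expressed allele, and the arrow for Snrpn starts at its lower bound of 6.19 because the WT-labelled library had 0 reads. Gatm, Snrpn, Grb10, Peg12, Peg3 and Igf2 lie wholly beyond 2-fold on the right, and Asb4, H19, Mest and Meg3 wholly beyond it on the left.

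Grb10 on chromosome 11 had the highest ratio of the 30 compared members on the RPKM + 1 scale. It encodes an adaptor that damps insulin and IGF receptor signalling and is maternally expressed outside the nervous system. It had 67.2 RPKM (3308 reads) in the KO-labelled and 1.54 RPKM (75 reads) in the WT-labelled library. The interval of its log2 reads ratio was 5.12 to 5.80. Small RNA entries and genes named Gm with a number aside, Fignl1 was the only compared gene among the nearest flanking genes in neither imprinted list. It was close at 31.6 in KO and 29.5 RPKM in WT. Cobl, an actin nucleator gene next to Grb10 that is imprinted in some tissues, had 0.439 RPKM (24 reads) in KO and 2.11 RPKM (114 reads) in WT. Ddc, which lies next to Grb10, had 2 reads in the KO-labelled and 0 in the WT-labelled library.

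Gatm on chromosome 2 encodes the first enzyme of creatine synthesis and is imprinted in placenta and yolk sac, not known to be so in fibroblasts. It had 27.2 RPKM (612 reads) in the KO-labelled and 0.359 RPKM (8 reads) in the WT-labelled library, with an interval of 5.26 to 7.46. Among its neighbours, Shf (26.7 in KO and 25.1 RPKM in WT), Spata5l1 (11.6 in KO and 9.06 RPKM in WT) and Slc30a4 (51.4 in KO and 54.0 RPKM in WT) were close, while AA467197 had 2.13 RPKM (13 reads) in KO and 4.30 RPKM (26 reads) in WT, an interval with its upper end just below 0. Gamt, encoding the second enzyme of the pathway, had 37.7 in KO and 27.7 RPKM in WT, and the creatine transporter gene Slc6a8 had 30.4 in KO and 32.6 RPKM in WT.

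The Peg3 locus was nearly silent in the WT-labelled library. Peg3, a paternally expressed zinc-finger gene linked to growth and maternal behaviour, had 2.75 RPKM (174 reads) in the KO-labelled and 0.160 RPKM (10 reads) in the WT-labelled library, an interval of 3.19 to 5.19. Peg3os, an overlapping entry looked up after its values were seen, had 23 in KO and 3 reads in WT. Usp29, which starts beside Peg3 on the opposite strand, had 1 read in the KO-labelled library and 0 in the WT-labelled library, and the maternally expressed Zim1 had none in either. Zfp954, the only compared gene among the nearest flanking genes chosen in the same way, had 13.8 in KO and 16.9 RPKM in WT.

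Mest and Copg2 on chromosome 6 were both lower in the KO-labelled library, by different amounts. Mest, a paternally expressed gene for a hydrolase-like protein of embryonic mesoderm, had 5.28 RPKM (140 reads) in the KO-labelled and 48.2 RPKM (1265 reads) in the WT-labelled library, an interval of -3.45 to -2.94. Copg2, encoding a subunit of the Golgi coat complex, had 27.3 RPKM (1046 reads) in KO and 46.0 RPKM (1746 reads) in WT, an interval of -0.87 to -0.64. The genes overlap on opposite strands in the annotation, and no source used here says whether counting used strand, so reads of Mest cannot be told apart from reads of Copg2 in the shared stretch. Of the flanking genes, Cep41 (16.9 in KO and 19.4 RPKM in WT) was close and Mkln1os was lower (0.761 in KO and 2.64 RPKM in WT).

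Promoter windows from RefSeq (GRCm38.p6, 250 bases before to 50 after a transcript start) were scanned for TGCCGC and its reverse complement GCGGCA, the hexamer bound by ZFP57 when methylated, which protects imprints in the early embryo. Windows were found for 32 of the 38 members, 47 windows in all, of which 10 (21.3%) in 9 genes held a match. H19, the lowest member, had no window, and neither had Cdkn1c, Nap1l4, Peg10, Sgce or Impact. The 10 include windows of Mest starting at 30737800 and 30737803, which nearly coincide. Of all 32851 windows of this length, 11.6% held one. One window each of Snrpn, Grb10 and Mest is shown because these genes were among those past 2-fold, in both directions, that had a match. The match is in capitals, reading on the strand of the gene. The Snrpn window is the one it shares with Snurf (chr7:60005150-60005449, minus strand, 7 CpG), that of Grb10 is chr11:12037371-12037670 (minus strand, 45 CpG) and that of Mest is chr6:30737800-30738099 (plus strand, 17 CpG, 2 matches). A match in these letters is not a measurement of binding or methylation.
Snrpn: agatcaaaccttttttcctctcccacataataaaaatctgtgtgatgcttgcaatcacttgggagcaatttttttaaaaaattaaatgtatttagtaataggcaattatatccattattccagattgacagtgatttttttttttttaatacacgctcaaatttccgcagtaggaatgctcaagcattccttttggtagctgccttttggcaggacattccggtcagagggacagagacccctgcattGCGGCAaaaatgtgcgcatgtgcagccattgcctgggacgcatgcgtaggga
Grb10: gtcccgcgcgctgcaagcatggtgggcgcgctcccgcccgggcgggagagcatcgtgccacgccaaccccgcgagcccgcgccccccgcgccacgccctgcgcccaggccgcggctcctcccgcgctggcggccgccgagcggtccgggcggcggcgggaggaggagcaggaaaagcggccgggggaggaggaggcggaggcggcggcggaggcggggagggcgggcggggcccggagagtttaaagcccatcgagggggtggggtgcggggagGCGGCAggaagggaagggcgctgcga
Mest: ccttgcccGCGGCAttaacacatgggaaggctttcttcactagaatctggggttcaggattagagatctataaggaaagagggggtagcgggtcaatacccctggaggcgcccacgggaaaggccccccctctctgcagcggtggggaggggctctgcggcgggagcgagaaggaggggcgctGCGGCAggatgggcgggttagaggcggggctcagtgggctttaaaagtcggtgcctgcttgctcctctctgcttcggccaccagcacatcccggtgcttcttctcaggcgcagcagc

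No window of Peg3, Peg12, Gatm or Asb4 held the hexamer, and the median number of CpG was 15.0 over member windows and 7.0 over all windows. Among genes that were level, the window of Plagl1 held 1 match. The hexamer was thus found in windows of genes that were higher, lower and level.

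At the Dlk1-Dio3 locus on chromosome 12, the noncoding RNAs of the maternal copy and the coding genes Dlk1 and Dio3 of the paternal copy stood on opposite sides. Meg3, a maternally expressed long noncoding RNA, had 1.55 RPKM (192 reads) in the KO-labelled and 4.61 RPKM (564 reads) in the WT-labelled library, an interval of -1.81 to -1.33. Rian, the noncoding RNA downstream of it, had 6.56 RPKM (224 reads) in KO and 17.9 RPKM (604 reads) in WT, an interval of -1.67 to -1.22. Mirg, the last of this row and named after its values were seen, had 0.645 RPKM (8 reads) in KO and 2.20 RPKM (27 reads) in WT. All 3 were therefore lower in the KO-labelled library.

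Dlk1, the paternally expressed gene for a membrane protein that holds back fat cell differentiation, had 4.59 RPKM (211 reads) in the KO-labelled and 2.62 RPKM (119 reads) in the WT-labelled library, an interval of 0.48 to 1.15. Dio3, encoding the enzyme that inactivates thyroid hormone, had 26.5 RPKM (473 reads) in KO and 20 RPKM (353 reads) in WT, an interval of 0.21 to 0.61. Neither reached 2-fold. Begain, at the edge of the cluster and also held to be paternally expressed, went with the maternal RNAs at 0.502 RPKM (13 reads) in KO and 3.51 RPKM (90 reads) in WT, an interval of -3.77 to -1.96, so the cluster as a whole did not split by parental copy. The flanking genes Wars (47.3 in KO and 48.1 RPKM in WT), Dync1h1 (26.9 in KO and 26.5 RPKM in WT) and Ppp2r5c (23.3 in KO and 26.0 RPKM in WT) were close. B930059L03Rik had 6 reads in KO and 22 reads in WT, an interval of -3.48 to -0.54. Wdr25 (154 reads in KO and 116 in WT, interval 0.04 to 0.75) and Slc25a47 (103 in KO and 78 in WT, interval -0.05 to 0.83) were each 1.31-fold higher in the KO-labelled library. Dio3 was 1.33-fold higher, so its difference was like that of these flanking genes.

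None of the 8 members of the Kcnq1ot1 domain on chromosome 7 was 2-fold apart on the RPKM + 1 scale, and 5 of them were compared. Ascl2 and Cdkn1c came nearest, in opposite directions. Cdkn1c, encoding the maternally expressed cell cycle inhibitor p57, had 4.96 RPKM (92 reads) in the KO-labelled and 2.07 RPKM (38 reads) in the WT-labelled library; its log2 ratio was 0.96 on the RPKM + 1 scale and 1.26 (0.70 to 1.85) by reads. Ascl2, a transcription factor gene needed for placenta, had 0.325 RPKM (5 reads) in KO and 1.58 RPKM (24 reads) in WT, a log2 ratio of -0.96 on the RPKM + 1 scale and -2.28 (-4.03 to -0.86) by reads. The long noncoding RNA Kcnq1ot1, which silences the cluster on the paternal copy, had 0.283 RPKM (225 reads) in KO and 0.334 RPKM (263 reads) in WT over an implied 83437 bases. Its level per length was low in both libraries, and its interval of -0.50 to 0.02 included 0.

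The genes at the ends of the domain, imprinted mainly in placenta, were abundant and level. Cd81, a tetraspanin gene, had 43.1 in KO and 45.3 RPKM in WT, Tssc4 36.0 in KO and 43.6 RPKM in WT and the histone chaperone gene Nap1l4 50.4 in KO and 53.8 RPKM in WT. Slc22a18, a transporter gene, had 3 in KO and 10 reads in WT, and Phlda2, which restrains placental growth, had 0.142 in KO and 0.144 RPKM in WT.

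The Peg10-Sgce locus on chromosome 6 shifted little in its paternally expressed genes and more in a maternally expressed one. Peg10, derived from a retrotransposon, had 27.0 RPKM (1719 reads) in the KO-labelled and 36.5 RPKM (2299 reads) in the WT-labelled library. Sgce, encoding epsilon-sarcoglycan, had 35.4 RPKM (633 reads) in KO and 42.6 RPKM (755 reads) in WT. Asb4, encoding an ankyrin-repeat protein, had 0.223 RPKM (7 reads) in KO and 3.45 RPKM (107 reads) in WT, an interval of -5.30 to -2.86. Ppp1r9a, a neuronal gene of the same side, had 0 reads in the KO-labelled and 14 reads in the WT-labelled library, and the interval of its log2 reads ratio lay below -1.75. Outside the cluster, Gng11 was also lower (2.13 in KO and 22.0 RPKM in WT), while Col1a2 (49.5 in KO and 48.6 RPKM in WT) was level.

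Most remaining loci were close in both libraries. Igf2r, the maternally expressed receptor gene that clears IGF2, had 50.7 RPKM (4325 reads) in the KO-labelled and 46.5 RPKM (3919 reads) in the WT-labelled library. Airn, the paternally expressed noncoding RNA that silences it, had 5.41 RPKM (113 reads) in KO and 6.14 RPKM (127 reads) in WT, and it overlaps Igf2r on the other strand, so its reads cannot be told apart from those of unspliced Igf2r. Plagl1, a paternally expressed zinc-finger gene on chromosome 10, had 24.4 in KO and 25.3 RPKM in WT, and Impact, a regulator of translation, had 31.2 in KO and 35.1 RPKM in WT. Gnas, encoding the stimulatory G protein alpha subunit, had 17.8 in KO and 18.7 RPKM in WT. Zrsr1, a splicing factor retrogene inside an intron of Commd1, had 13.4 in KO and 16.7 RPKM in WT.

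Nnat, a paternally expressed gene inside an intron of Blcap on chromosome 2, had 2.74 RPKM (35 reads) in the KO-labelled and 1.03 RPKM (13 reads) in the WT-labelled library, an interval of 0.46 to 2.46. Rasgrf1, a brain gene on chromosome 9, had 2 reads in KO and 0 reads in WT. With Zim1, Usp29, Magel2, Phlda2, Slc22a18, Kcnq1ot1 and Ppp1r9a it made up the 8 members below 1 RPKM in both libraries, which entered no count of differences.

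**Figure D3:**
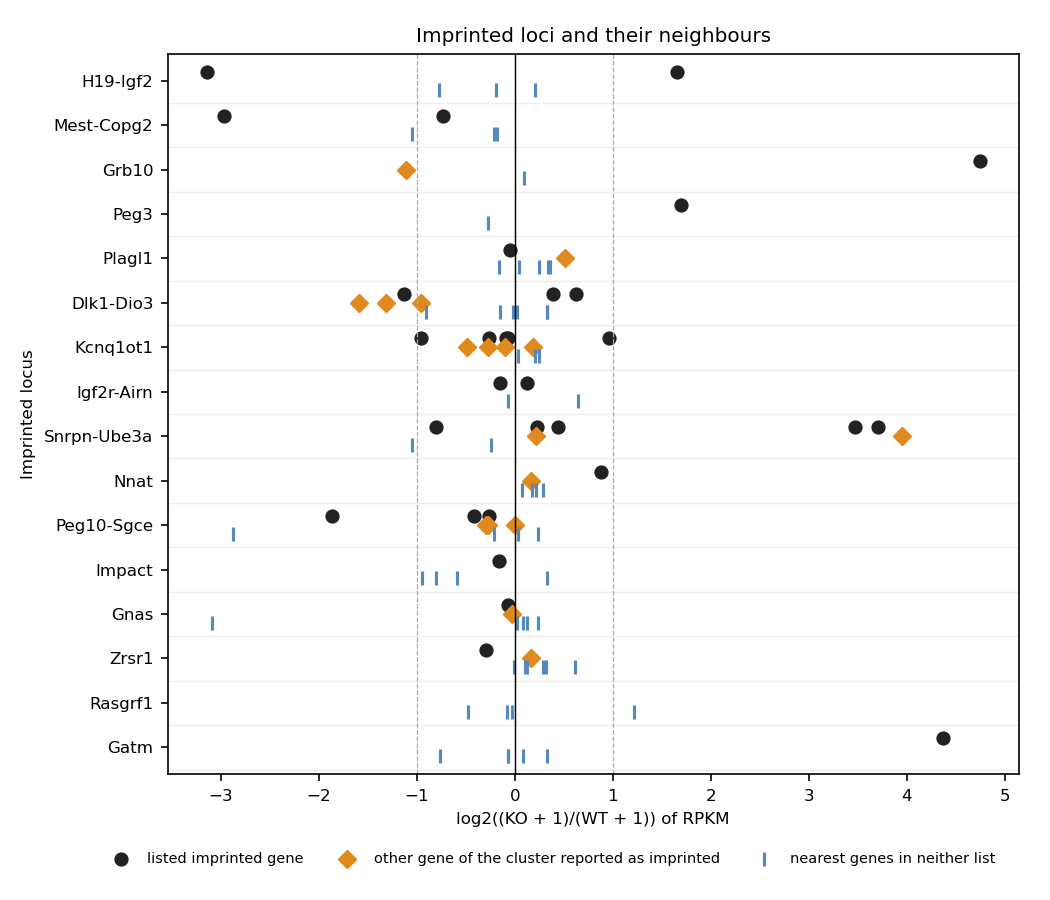
Log2((KO + 1)/(WT + 1)) of RPKM for genes with at least 1 RPKM, 1 row per locus: listed imprinted genes as black circles, other genes of the cluster on the second imprinted list as orange diamonds, and the nearest genes in neither list as blue bars; dashed lines mark 2-fold. The outer points are mostly imprinted genes (Grb10 at 4.75, Gatm at 4.37, H19 at -3.15), while most neighbours lie between the dashed lines, with Npepl1 beside Gnas at -3.09 and Gng11 beside Peg10 at -2.88 as the widest exceptions. Unlisted genes lying inside a locus and beside no other, such as D7Ertd715e, are not drawn. Small RNA entries and genes named Gm with a number were passed over in choosing neighbours.

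Small RNA entries and genes named Gm with a number were passed over in choosing neighbours and genes inside a locus. Among those passed over, Gm7367 overlaps Snrpn (47.9 in KO and 39.5 RPKM in WT) and Mir1906-1 overlaps Meg3 (3.93 in KO and 23.8 RPKM in WT). Of the remaining genes in neither imprinted list, the 3 nearest on each side of every locus came to 94, of which 57 were compared. In the KO-labelled library 1 was higher (1.75%, against 4.42% of all compared genes) and 4 were lower (7.02%, against 7.46%) by 2-fold or more, and their median log2 ratio was 0.03. The share lower was thus close to that of all genes. Unlisted genes lying inside a locus, and beside no other, were left out of these counts. Among those of at least 1 RPKM, D7Ertd715e and Peg3os were higher by 2-fold or more. A330076H08Rik was lower (0 in KO and 1.095 RPKM in WT). Dio3os (14.25 in KO and 12.7 RPKM in WT) and C230091D08Rik (17.1 in KO and 12.0 RPKM in WT) lay within 2-fold. The higher one was Adamts7 beside Rasgrf1 (22.7 in KO and 9.19 RPKM in WT). Npepl1 beside Gnas was the lowest, at 0.849 RPKM in the KO-labelled, against 14.8 RPKM in the WT-labelled library. The difference in share between listed genes and neighbours was not tested.

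A second list of 54 genes reported as imprinted in some mouse tissue, or lying in an imprinted cluster, had 51 in the table and 33 compared. By 2-fold or more, 2 of them were higher (6.06%, against 4.42% of all compared genes) and 7 lower (21.2%, against 7.46%) in the KO-labelled library, with a median log2 ratio of -0.10. The higher ones were Snurf, whose reads are those of Snrpn, and the amino acid transporter gene Slc38a4, at 13.7 RPKM (515 reads) in KO, against 3.37 RPKM (125 reads) in the WT-labelled library. Among the lower ones, the serotonin receptor gene Htr2a had 1.38 in KO and 10.2 RPKM in WT, the ubiquitin ligase gene Herc3 1.29 in KO and 9.16 RPKM in WT, and the matrix proteoglycan gene Dcn 12.3 in KO and 29.7 RPKM in WT. Dcn is also a fibroblast marker.

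Genes that set, keep or erase imprints lay mostly within 2-fold. Of 32 such genes, 29 were compared. In the KO-labelled library 2 were higher by 2-fold or more (6.9%, against 4.42% of all compared genes) and 0 lower (against 7.46%). The median log2 ratio of the 29 was 0.14, against 0.0053 for all compared genes. The share higher is near that of all genes. The higher ones were the de novo methyltransferase gene Dnmt3b (169 reads at 4.09 RPKM, against 58 reads at 1.42 RPKM in the WT-labelled library) and Tet1, encoding an enzyme that oxidizes methylated cytosine (4.47 RPKM, 601 reads in KO, against 1.29 RPKM, 172 reads in WT). The maintenance methyltransferase gene Dnmt1 had 48.5 in KO and 43.3 RPKM in WT, its partner Uhrf1 36.8 in KO and 37.0 RPKM in WT, Zfp57 27.7 in KO and 24.7 RPKM in WT, Trim28 35.9 in KO and 36.4 RPKM in WT, and Ctcf, whose product binds the H19-Igf2 control region, 38.2 in KO and 34.6 RPKM in WT. Among relatives of Dnmt3b and Tet1, Dnmt3a (12.4 in KO and 9.13 RPKM in WT) and Tet3 (22.1 in KO and 13.2 RPKM in WT) were higher, within 2-fold. Tet2 was lower (7.86 in KO and 9.13 RPKM in WT), also within 2-fold. Methylation itself was not measured.

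Partners of the imprinted proteins were mostly level. Of 25 genes on that list 24 were compared, and 0 were 2-fold apart in either direction on the RPKM + 1 scale. Of all compared genes, 4.42% were higher and 7.46% lower, and the gap between the shares was not tested. The median log2 ratio of the 24 was 0.12. That scale understates low genes, and the thyroid hormone receptor gene Thrb, at 1.34 RPKM (84 reads) in KO and 0.388 RPKM (24 reads) in WT, had a log2 reads ratio of 1.79 with an interval wholly beyond 2-fold. Igf1r, the receptor that IGF2 acts through, had 29.2 in KO and 25.6 RPKM in WT, and Insr, whose signal Grb10 damps, had 21.0 in KO and 14.1 RPKM in WT. The cell cycle inhibitor gene Cdkn1a, related to Cdkn1c, had 59.3 in KO and 30.2 RPKM in WT, a log2 ratio of 0.95.

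**Figure D4:**
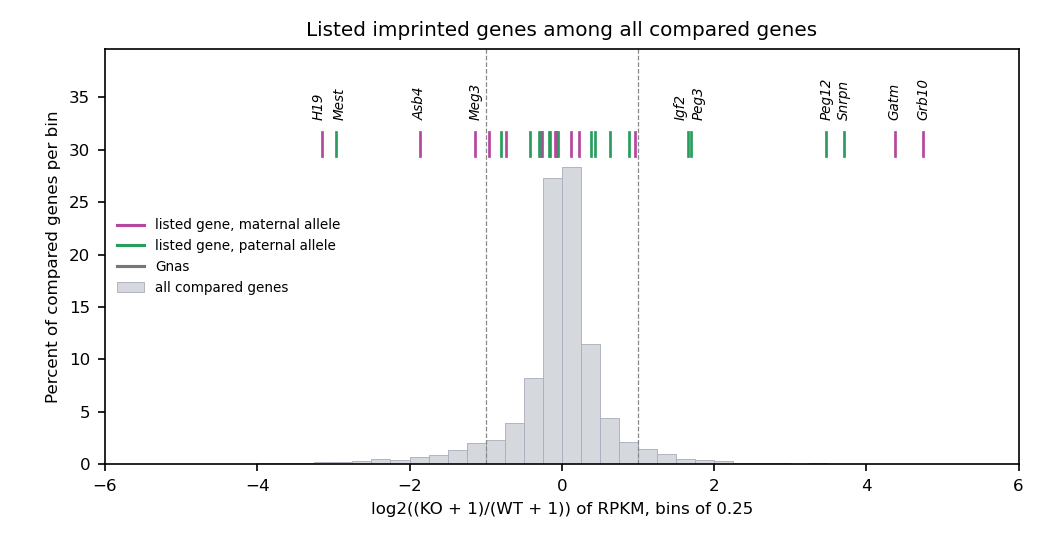
Percent of the 13867 compared genes in each bin of log2((KO + 1)/(WT + 1)) of RPKM (grey bars), with 1 tick above for each of the 30 compared imprinted genes, coloured by expressed allele; dashed lines mark 2-fold. The 10 named ticks outside the dashed lines run from H19 at -3.15 to Grb10 at 4.75, and the other 20 fall inside.

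No edited site was listed in any of the 38 members in either library, out of 110 sites in the KO-labelled and 654 in the WT-labelled library. Absence from these lists does not measure a lack of editing. The only imprinted-list gene with sites was Blcap, the host of Nnat. Its tyrosine-to-cysteine site (mm9, chromosome 2, position 157383885, minus strand, coding) had 5 edited of 34 reads in the KO-labelled library (14.7%, Wilson 95% interval 6.45 to 30.1) and 6 of 33 in the WT-labelled library (18.2%, 8.61 to 34.4). The difference did not pass Fisher's exact test, two-sided (adjusted p = 0.78), at this depth. A glutamine-to-arginine site at position 157383876 was listed in the KO-labelled library alone, at 4 of 39 reads. Blcap itself had 38.0 in KO and 33.9 RPKM in WT.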

How the data were processed

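Poly(A)+ RNA of 2 cultures was sequenced as single-end reads, 1 library per genotype. STAR 2.4.0d, SAMtools and mm9 are named, without roles, per the submitters' processing notes. Expression is in RPKM, computed by the authors per the file headers; their deposited table adds log2 and shrunken (GFOLD) fold changes, and a false discovery rate (p-value type) that is 1 in all 24015 rows and was not used. No source used here gives the annotation, counting rule or strand. The deposited editing files list read counts and the edited fraction per site, per the file headers.

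Whole reads were recovered from RPKM and the authors' log2 fold change, which equals log2 of the ratio of reads plus 1, with a constant of 0.0371 added. Totals were 9546997 reads (KO-labelled) and 9446911 (WT-labelled). A single solution was found for 17122 of 17981 genes above 0 (95.2%), which includes each gene given with reads; the procedure was tested on simulated data. RPKM remained the measurement, and the count design foreseen for counts was not used. The highest values were 1.19 and 1.01 reads per base, a low ceiling near which ratios of abundant genes may be understated: Grb10 reached 0.641 in the KO-labelled library and H19 0.647 in the WT-labelled library.

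Unless given by reads, ratios are log2((KO + 1)/(WT + 1)) of RPKM, which understates differences of low genes, taken where either library reached 1 RPKM. Intervals on reads are exact 95% Clopper-Pearson, conditional on the sum, and cover counting error only, as do the Wilson intervals. No test across genes was possible with 1 library per group. Shared edited sites covered by 10 or more reads per library were tested with Fisher's exact test, with Benjamini-Hochberg adjustment over all of them, which compares libraries and not genotypes. Members, lists and settings were chosen with earlier results of these data known. Members of at least 1 RPKM are given with both values. Genes named from other lists are past 2-fold with at least 5 RPKM in a library, except Dnmt3b and Tet1, which lie below 5 RPKM in both. The other genes named beside them, of the same locus or pathway, were chosen after their values were seen. Gene order, overlaps, promoters and microRNAs come from RefSeq and GENCODE on GRCm38, not the build of the files, and were matched by symbol. Python 3.11.15, pandas 2.3.3, scipy 1.17.1 and matplotlib 3.10.9 were used.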

Additional observations from a re-analysis of the deposited data

How the results depend on the processing

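With 1 library per genotype, no library could be left out. No paired analysis was possible because each group has 1 sample. The count of members at least 2-fold higher in the KO-labelled library was 6 as reported and between 4 and 9 under the alternatives run, and no ratio of a single member past 2-fold changed sign. The count of members at least 2-fold lower, 4 as reported, was 2 with a pseudocount of 5 RPKM, 2 among members of at least 5 RPKM, 7 at a limit of 1.5-fold and 2 at a limit of 4-fold. It was 1 of 17 without members that overlap another gene of at least 1 RPKM, a setting chosen after seeing the data. That setting drops Mest for Copg2 on the opposite strand. It also drops H19 for Mir675 and Meg3 for Mir1906-1, microRNA entries on the same strand as these genes. Reads at such an entry can be those of the host transcript, so the lower count does not show that H19 or Meg3 depends on another gene. For maternally expressed members the count lower, 3, was 1, 1, 5 and 1 under those first 4 settings. For paternally expressed members the count higher, 4, was 2 with a pseudocount of 5 RPKM, 2 among members of at least 5 RPKM and 2 at 4-fold, and the count lower, 1, was 2 at 1.5-fold. The paternal median of 0.17 turned to -0.17 among the 11 paternal members of at least 5 RPKM, where fewer genes enter. Of 210 single-member ratios under other settings, 38 moved by more than the one-sided reach of the counting interval and 0 reversed. Over all genes, the counts higher and lower, 613 and 1035, were 192 and 419 with a pseudocount of 5 RPKM, 353 and 659 from 5 RPKM up, 1247 and 1660 at 1.5-fold and 146 and 337 at 4-fold. Scaling shifted the median of all genes by less than 0.1 on the log2 scale. By reads per library total, 8 members were higher and 5 lower, with Cdkn1c, Nnat and Ascl2 added. The counts over all genes also rose under that setting, to 782 higher and 1284 lower of 13364 genes. Low reads limit Ascl2, Asb4, Nnat and Slc22a18. The size of the ratio is also limited by few reads in the WT-labelled library for Gatm (8), Peg3 (10) and Peg12 (10), and by 0 reads there for Snrpn.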
